A study of Rattus norvegicus with 75 samples.

Results

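Ribosome biogenesis genes encode the machinery that makes ribosomes in the nucleolus. The group was fixed as a list of 39 gene names, and its members are the rows of the deposited table of 32754 genes that carry those names. All 39 matched a single row each. The rule uses names alone, but the list was drawn up with earlier results of these data known. By role, 5 belong to RNA polymerase I and its start factors, 5 are nucleolar scaffold and regulatory proteins, and 7 belong to small nucleolar ribonucleoproteins (snoRNPs). Another 9 act on the small ribosomal subunit and 13 on the large subunit. Nhp2, a snoRNP protein, was listed at 0 in every library, so 38 members entered every test.

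Tubule segments were hand-dissected from kidneys of male Sprague-Dawley rats that weighed 120 to 160 g. Ages were not given, and no group carried a transgene or deletion. The cortical collecting duct (CCD) holds principal and intercalated cells, and the cortical thick ascending limb (cTAL) takes up salt upstream of it. Rats ate control food or food with 40 mM lithium chloride per kg, and the series asks which signals start the loss of urine concentration that lithium causes. The 12 h CCD groups held 3 control and 2 lithium libraries. The 24 h and 36 h CCD groups held 3 of each kind, and the 72 h CCD groups 17 and 19. The cTAL groups, sampled only at 72 h, held 12 controls and 10 lithium libraries.

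As background, RNA polymerase I transcribes the long precursor of the ribosomal RNAs. Box C/D snoRNPs, built around fibrillarin (Fbl), Nop56 and Nop58, methylate that precursor, and box H/ACA snoRNPs, built around dyskerin (Dkc1), convert uridines in it to pseudouridine. The small and large subunit processomes then cut, fold and assemble the RNA with ribosomal proteins. In growing cells these genes are known targets of the transcription factor Myc, and their products are made ahead of and during division.

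The promoters of the 4 snoRNP core genes are shown. Each was called at 3 or 4 of the 4 times in CCD and again in the comparison of lithium effects between segments. The large subunit genes Wdr74, Nip7 and Mrto4 met the same rule and are not shown, so the 4 are a choice among those that met it. RefSeq's promoter table, of the GRCr8 build, held 37 of the 39 members, with 250 bases before and 50 after the start of each gene. Each line gives the 250 bases before the start, 5′ to 3′ on the + strand, and capitals mark the letters CACGTG (the E-box that Myc and other factors can bind) and CCGGAAG or its reverse complement (a core that ETS-family factors can bind). The 4 stretches are chr1:92597157-92597406 for Fbl, chr3:137929929-137930178 for Nop56, chr9:68614824-68615073 for Nop58 and chrX:157751401-157751650 for Dkc1.
Fbl: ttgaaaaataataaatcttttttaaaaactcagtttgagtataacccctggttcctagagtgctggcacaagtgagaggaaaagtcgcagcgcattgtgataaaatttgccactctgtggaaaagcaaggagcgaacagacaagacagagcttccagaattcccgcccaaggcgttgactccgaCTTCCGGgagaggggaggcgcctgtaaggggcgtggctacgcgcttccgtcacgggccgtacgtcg
Nop56: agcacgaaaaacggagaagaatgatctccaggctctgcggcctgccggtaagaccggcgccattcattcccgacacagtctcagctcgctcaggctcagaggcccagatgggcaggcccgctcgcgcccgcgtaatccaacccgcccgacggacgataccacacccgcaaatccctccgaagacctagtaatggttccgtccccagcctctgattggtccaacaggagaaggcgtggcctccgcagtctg
Nop58: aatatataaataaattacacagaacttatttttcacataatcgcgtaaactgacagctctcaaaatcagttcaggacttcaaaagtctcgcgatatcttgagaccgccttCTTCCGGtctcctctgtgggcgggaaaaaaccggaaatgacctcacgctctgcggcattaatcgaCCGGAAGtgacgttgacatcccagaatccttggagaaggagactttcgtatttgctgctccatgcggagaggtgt
Dkc1: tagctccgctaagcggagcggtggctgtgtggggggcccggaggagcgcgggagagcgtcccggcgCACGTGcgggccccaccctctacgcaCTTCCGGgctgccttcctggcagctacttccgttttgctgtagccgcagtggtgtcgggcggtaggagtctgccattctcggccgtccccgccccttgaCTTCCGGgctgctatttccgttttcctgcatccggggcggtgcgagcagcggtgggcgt
The Fbl stretch held 1 CCGGAAG match, the Nop58 stretch 2 and the Dkc1 stretch 2, and Dkc1 also held 1 CACGTG match that began 184 bases before the start. The Nop56 stretch held neither word. Fbl had a CACGTG match from position 22 after its start, in cttttttcCACGTGtgaaagcc. Over the 300-base windows and both strands, CACGTG occurred in 11 of 37 member promoters (29.7%) and in 6.42% of all 33469 promoters. CCGGAAG occurred in 16 of 37 (43.2%) and in 8.75% of all promoters, and 4 members held both words, which do not overlap as letters. The shares over all promoters take every entry, whether or not its gene was expressed in these libraries, and base composition was not matched. These are matches of letters only, and binding was not measured.

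Values are TPM, a share of all transcripts scaled to a fixed total, which hold no count, so the depth of each library is unknown and precision rests on the spread between libraries. Between 10888 and 12411 genes reached 1 TPM in a library, and mitochondrial genes took 5.41 to 22.12% of the total. The markers of each segment were high in its own libraries: principal cell markers summed to 12152 to 19711 TPM in control CCD and to 140 to 338 TPM in control cTAL at 72 h, and thick ascending limb markers to 717 to 1588 and 53578 to 89648 TPM. Libraries were not all independent of each other. By 5 genes that are either on or off, none of them a member, the 72 h libraries fell into 4 control and 4 lithium sets, each found in both segments, and each of the 6 early groups showed a single pattern. These genes were picked for having both states in each 72 h group and few changes of state along the library numbers. Runs of libraries and sets shared by the segments are therefore partly built in. Whether a set is a single rat was not tested, and which libraries are from different rats is not in the labels. P-values over libraries therefore reflect library-to-library spread alone, part of which may be technical, and the counts over all members are given again from the means of these sets. For the early times those means leave 1 value per group, which is assumed to vary like the sets at 72 h.

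In CCD, few ribosome biogenesis genes were higher under lithium at 12 and 24 h, most were at 36 h, and fewer again at 72 h. Calls needed a Benjamini-Hochberg adjusted p under 0.05 over all genes tested, from limma on log2(TPM + 1). At 12 h 5 of 38 members (13.2%) were called higher, against 7.1% of all genes, and at 24 h 7 (18.4%), against 18.3% of all genes, which is the background share. At 36 h 31 members (81.6%) were called higher, against 23.7% of all genes, and at 72 h 18 (47.4%), against 22%. No member was called lower at any of the 4 times, where 3.3, 5.3, 8.5 and 15.2% of all genes were. Scaling each library by its median of ratios to the others gave 3, 4, 22 and 17 members higher, where 6.12, 12.2, 16.5 and 20.6% of all genes were, and 3 lower at 24 h, where 11% were. With set means the counts were 0, 0, 3 and 9, where 0, 2.12, 4.66 and 10.8% of all genes were called higher.

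The size of the lithium effect was also largest at 36 h. The median log2 difference of the members was 0.120, 0.165, 0.554 and 0.218 at 12, 24, 36 and 72 h, beside 0.059, 0.129, 0.129 and -0.003 over all genes tested. After scaling the members' medians were 0.062, 0.010, 0.412 and 0.200, with 20 of 38 members above 0 at 24 h. Of the 38 members, 35 had their largest difference at 36 h, 2 (Nob1 and Pes1) at 12 h, 1 (Polr1e) at 24 h and none at 72 h. The share of all genes with their largest difference at 36 h was not computed. In a fit of all CCD groups the effect was larger at 36 than at 24 h in 50.1% of all genes. It was larger at 72 than at 36 h in 36.3%. Lithium and control libraries did not overlap, with lithium higher, for 11 members at 12 h, 17 at 24 h and 33 at 36 h, against 22.4, 32.2 and 32.9% of all genes. In the other direction 0, 1 (Imp4) and 0 members did not overlap, against 11.5, 9.98 and 14%. Nop58 and Wdr74 were called at all 4 times, 5 members at 3 times, and 6 at none (Polr1b, Polr1c, Rrn3, Wdr75, Ddx10 and Pes1). The summed level of the members was 1170 to 1332 TPM in control and 1803 to 1940 TPM in lithium libraries at 36 h, and 1151 to 1393 against 1348 to 1786 TPM at 72 h.

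**Figure D1:**
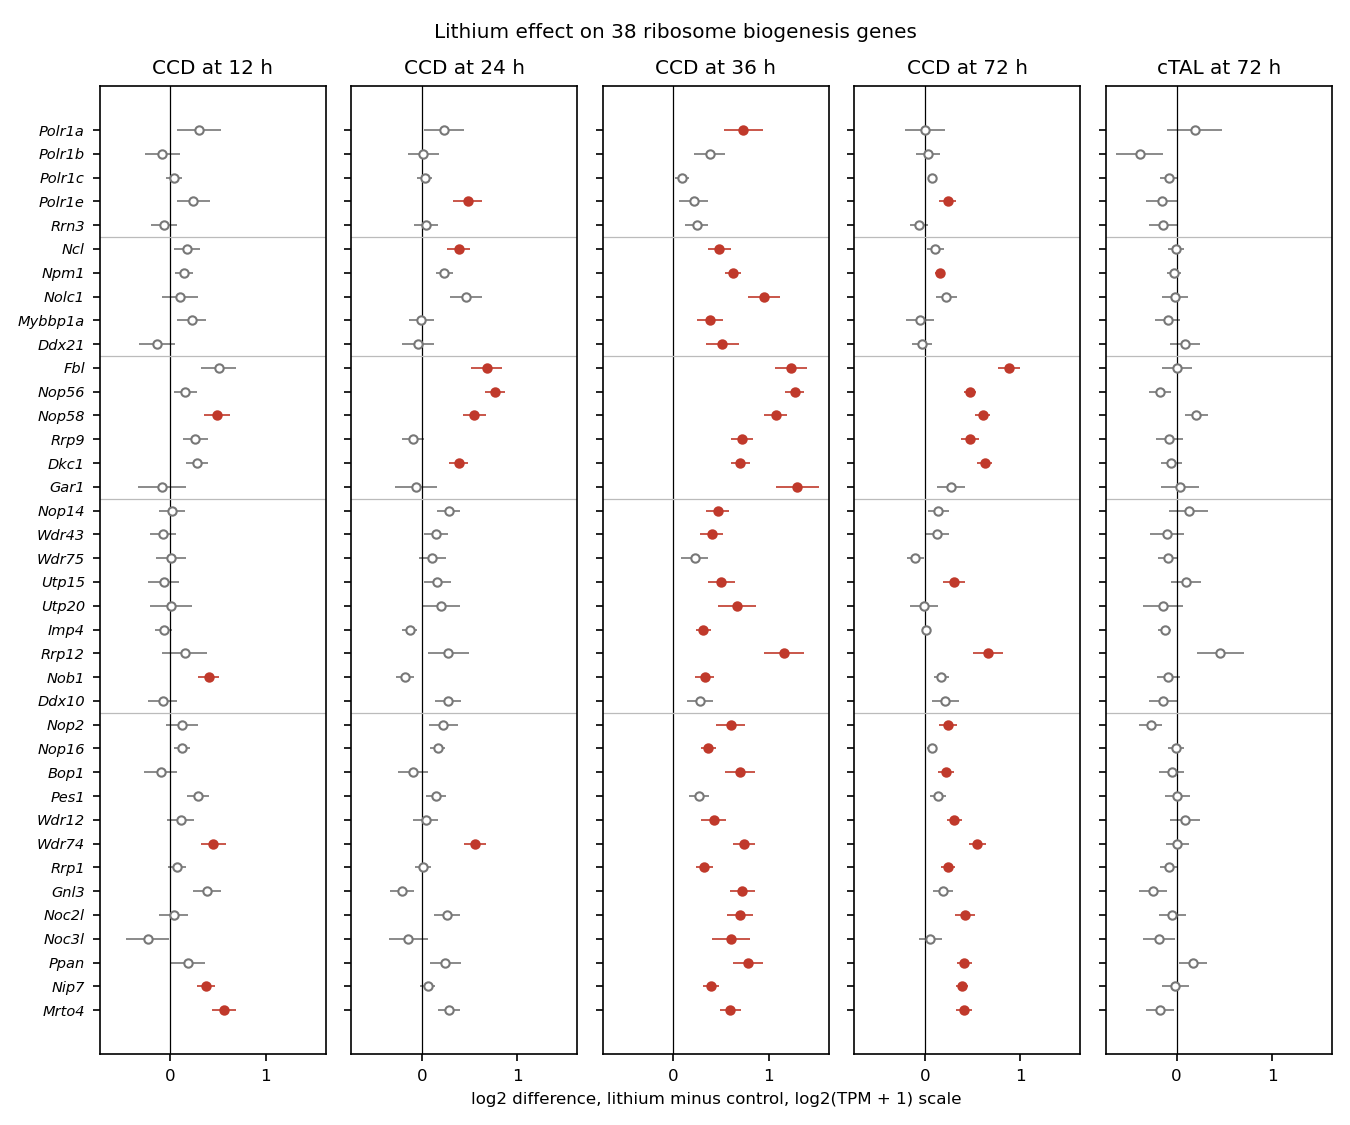
Lithium minus control difference in log2(TPM + 1) of 38 ribosome biogenesis genes, in 5 comparisons, with its standard error as a bar. Filled red points were called, open grey points were not, and lines divide the roles in the order RNA polymerase I, nucleolar scaffold and regulators, snoRNP, small subunit and large subunit. At 36 h 31 points are filled, at 72 h 18 in CCD and 0 in cTAL.

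The 2 lithium libraries at 12 h differed from each other. Their summed member levels were 1377 and 1625 TPM, where the 3 controls ran from 1313 to 1373 TPM. Without the second lithium library no member was called at 12 h and the median log2 difference was -0.024. Without the first it was 0.301. The count also fell to 2 without the second control library. Cell type markers moved at 12 h as well. Of thick ascending limb markers 2 of 8 were called lower, with sums of 1747 to 2109 TPM in control and 670 to 1121 TPM in lithium libraries and none at 0. Of principal cell markers 3 of 11 were called higher and 3 lower, with sums of 18963 to 21029 and 15077 to 17321 TPM and none at 0. Of immune markers 2 of 14 were called lower, and their sum was 189 to 407 TPM in control and 80.2 to 184 TPM in lithium libraries, with 1 marker at 0 in both groups. Their part in the result was not tested.

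The snoRNP genes showed the largest differences. All 6 members tested rose at 36 h, with a median log2 difference of 1.15, and 5 of 6 rose at 72 h, with a median of 0.538. At 12 h 1 of 6 and at 24 h 4 of 6 were called. Of all genes 7.1, 18.3, 23.7 and 22% were called higher at 12, 24, 36 and 72 h. Scaling by the median of ratios kept all 6 calls at 36 h and 5 at 72 h, and set means kept 2 and 5. At 36 and 72 h 16.5 and 20.6% of all genes were called higher after scaling, and 4.66 and 10.8% over set means.

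Fbl, the methyltransferase of box C/D snoRNPs, stood at 33.5, 27.7 and 33.9 TPM in the 36 h controls and at 72.0, 84.3 and 70.9 TPM under lithium. No lithium library overlapped the controls at 12, 24 or 36 h. The log2 difference was 0.51 (SE 0.184) at 12 h, which was not called, 0.68 (SE 0.165) at 24 h and 1.23 (SE 0.165) at 36 h, with adjusted p of 0.0936, 0.00676 and 2.6e-05. At 72 h controls ran from 11.0 over a median of 35.7 to 38.2 TPM and lithium libraries from 39.2 over 60.02 to 81.0 TPM. All 19 lithium libraries lay above the highest of 17 controls, which held for no other member. The difference of 0.88 (SE 0.114) had an adjusted p of 4.05e-08 over libraries and 0.00311 over set means.

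Nop56, a scaffold protein of the same particle, was not called at 12 h and rose at 24, 36 and 72 h. Controls at 12 h stood at 44.3, 43.6 and 49.2 TPM and lithium libraries at 46.1 and 56.5 TPM, which overlapped. At 24 h lithium libraries held 74.0, 64.1 and 62.2 TPM against 38.03, 36.5 and 42.0 TPM, and at 36 h 90.8, 99.1 and 85.3 TPM against 39.5, 39.5 and 33.5 TPM. These log2 differences of 0.76 (SE 0.103) and 1.27 (SE 0.103) had adjusted p of 4.92e-05 and 1.01e-07, the smallest of the members at 36 h. At 72 h lithium libraries ran from 41.5 over 54.5 to 73.2 TPM and controls from 31.7 over 39.1 to 46.8 TPM. The groups overlapped, with 16 of 19 lithium libraries above the highest control.

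Nop58, the other scaffold protein of that particle, was already called at 12 h. Controls stood at 36.3, 30.7 and 36.4 TPM and the lithium libraries at 44.9 and 52.5 TPM, a log2 difference of 0.49 (SE 0.136, adjusted p = 0.0307 in limma). It was 0.55 (SE 0.121) at 24 h, 1.07 (SE 0.121) at 36 h and 0.60 (SE 0.082) at 72 h. At 36 h lithium libraries held 80.5, 69.5 and 70.1 TPM against 36.5, 37.0 and 29.9 TPM. At 72 h 14 of 19 lithium libraries exceeded the highest control of 41.7 TPM. Rrp9, the U3 snoRNP protein, was near its controls at 24 h (24.9, 22.2 and 26.8 against 26.8, 26.4 and 25.8 TPM) and at 44.4, 46.4 and 40.4 TPM at 36 h, where controls held 29.7, 27.7 and 21.7 TPM.

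Dkc1, the pseudouridine synthase of box H/ACA snoRNPs, held 92.2, 96.5 and 91.9 TPM under lithium at 36 h and 60.02, 64.6 and 47.9 TPM in controls. Its log2 difference was 0.39 (SE 0.103) at 24 h, 0.70 (SE 0.103) at 36 h and 0.62 (SE 0.082) at 72 h, with adjusted p of 0.0124, 6.67e-05 and 5.11e-08. At 72 h it ran from 50.2 over 71.3 to 99.1 TPM under lithium and from 28.3 over 46.9 to 52.6 TPM in controls, and 17 of 19 lithium libraries lay above every control. Gar1, a small protein of the same particle, was low in all groups. It had the largest difference of the members at 36 h (1.30, SE 0.223), from 2.11, 1.83 and 3.28 TPM to 7.17, 7.32 and 7.24 TPM, and was called at no other time.

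**Figure D2:**
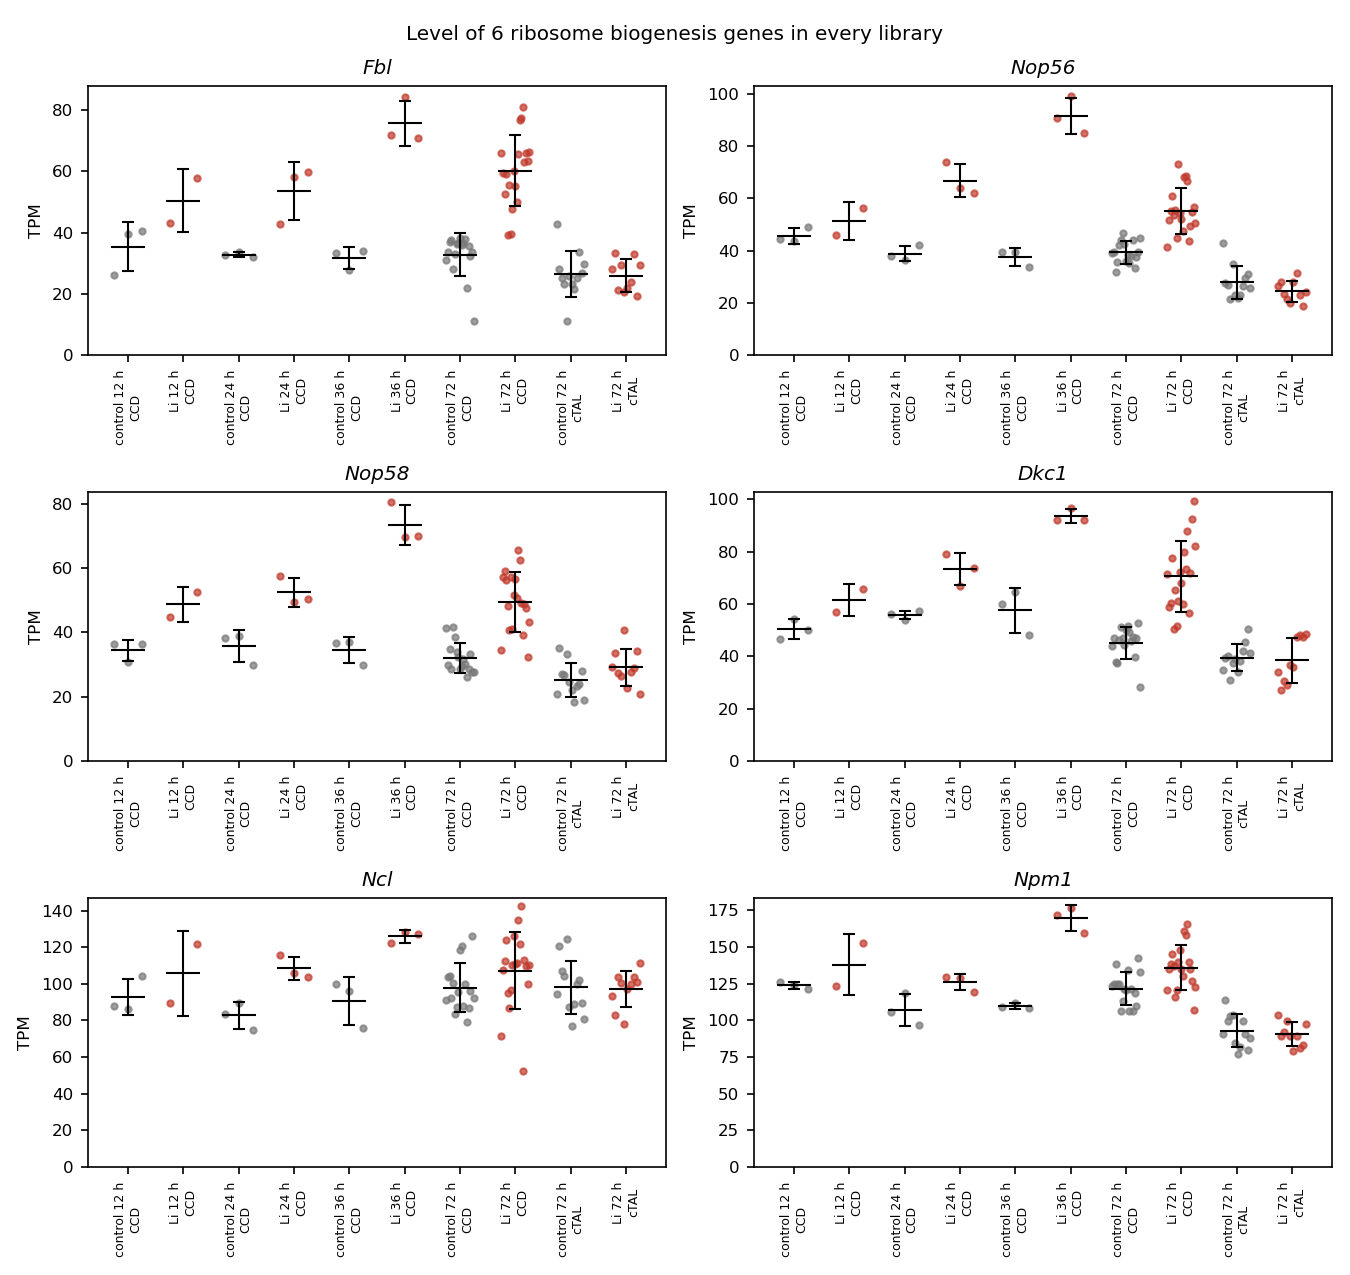
TPM of Fbl, Nop56, Nop58, Dkc1, Ncl and Npm1 in each library of the 10 groups, with grey points for controls, red points for lithium, and the mean and SD in black. In the 36 h lithium libraries all 6 genes lie above every 36 h control, and in cTAL the lithium and control points overlap.

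The nucleolar scaffold and regulatory genes rose at 36 h, 5 of 5, with a median log2 difference of 0.514, or 3 of 5 after median-of-ratios scaling. At 36 h 23.7% of all genes were called higher, or 16.5% after scaling. At 72 h 1 of 5 was called, near the 22% of all genes called higher. Npm1 (nucleophosmin), which shapes the outer nucleolus, stood at 172, 177 and 160 TPM against 109, 112 and 108 TPM at 36 h, a difference of 0.62 (SE 0.085, adjusted p = 3.16e-05). At 72 h it was 0.16 (SE 0.052, adjusted p = 0.0166), with lithium libraries from 107 to 166 TPM and controls from 106 to 142 TPM, and after scaling it was not called (adjusted p = 0.111). Ncl (nucleolin), which binds the nascent precursor, held 122, 128 and 127 TPM against 99.9, 96.0 and 75.8 TPM at 36 h (0.48, SE 0.121). It was also called at 24 h, but not after scaling (adjusted p = 0.083), and at 72 h its difference was 0.11 (SE 0.088). Npm1 and Ncl have processed copies elsewhere in the genome, so the division of reads between copies makes their levels less certain.

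Nolc1, a chaperone of snoRNPs, held 49.2, 57.4 and 50.9 TPM under lithium at 36 h against 29.8, 33.8 and 18.9 TPM. Its log2 difference of 0.94 (SE 0.167) was called over libraries (adjusted p = 0.000377) and over set means (adjusted p = 0.0199). Mybbp1a, a nucleolar regulator that binds Myb, differed by 0.38 (SE 0.136, adjusted p = 0.0415) at 36 h, from 29.8, 31.7 and 24.7 TPM to 36.8, 38.8 and 37.1 TPM, and was not called after scaling (adjusted p = 0.106). Ddx21, a helicase that couples polymerase I to processing, was at 9.53, 9.15 and 8.42 TPM against 7.02, 7.22 and 4.25 TPM, and lost its call after scaling (adjusted p = 0.0611).

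RNA polymerase I genes had the lowest median difference of the 5 roles at 24, 36 and 72 h. At 36 h 1 of 5 was called, Polr1a, the largest subunit (0.73, SE 0.206, adjusted p = 0.0121), and the median difference was 0.242. That count was near the background share, 23.7% of all genes called higher. Polr1e was called at 24 h and 72 h (0.48 and 0.24), but at neither time after scaling. Polr1b, the second largest subunit, held 11.6, 12.7 and 13.2 TPM under lithium at 36 h against 8.77, 9.61 and 9.71 TPM, which did not overlap, yet its difference of 0.38 (SE 0.161) had an adjusted p of 0.0842. Rrn3, the factor that brings the polymerase to its promoter, was at 22.6, 23.6 and 20.1 TPM against 17.4, 21.3 and 17.0 TPM, a difference of 0.24 (SE 0.125, adjusted p = 0.154). At 72 h the difference of Rrn3 was -0.06 and that of Polr1b 0.03. The median difference of the polymerase I genes turned from 0.040 to -0.019 at 12 h and from 0.044 to -0.109 at 24 h with scaling.

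Among small subunit genes 7 of 9 were called higher at 36 h, where 23.7% of all genes were. At 72 h 2 of 9 were (Utp15 and Rrp12), which is near the background share of 22%. After scaling the counts were 4 and 2, where 16.5 and 20.6% of all genes were called higher. Over set means there were none, where 4.66 and 10.8% of all genes were called. Rrp12, which carries precursors out of the nucleus, was the largest of them, at 8.33, 11.4 and 8.46 TPM against 4.00, 2.90 and 4.00 TPM at 36 h (1.16, SE 0.211). At 72 h it differed by 0.66 (SE 0.155), with 6 of 19 lithium libraries above the highest control. Nob1, the nuclease that makes the final cut of the small subunit RNA, varied over time. It was called higher at 12 h (44.2 and 49.6 TPM against 31.4, 36.6 and 38.2 TPM) and at 36 h, but was at 32.1, 35.3 and 39.1 TPM against 37.9, 43.1 and 39.5 TPM at 24 h. That 24 h difference of -0.18 (SE 0.096) was not called as deposited and was called lower after scaling (-0.33, adjusted p = 0.0155), as were Imp4 and Gnl3. At 36 h Nob1 lost its call after scaling (adjusted p = 0.158). The other called small subunit genes differed by 0.31 (Imp4) to 0.67 (Utp20) at 36 h, while Wdr75 and Ddx10 (0.22 and 0.28) were not called.

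Large subunit genes followed with 12 of 13 called higher at 36 h and 9 of 13 at 72 h, or 8 and 9 after scaling and 0 and 4 over set means. The shares of all genes were 23.7 and 22%, or 16.5 and 20.6% after scaling and 4.66 and 10.8% over set means. Wdr74, which works with the remodelling factor of pre-60S particles, rose at 36 h from 39.7, 30.2 and 32.5 TPM to 54.9, 59.5 and 57.5 TPM (0.74, SE 0.116) and at 72 h by 0.55 (SE 0.085). Its 12 h difference of 0.45 lost its call after scaling (adjusted p = 0.068). Mrto4, an assembly factor of the ribosomal stalk, had the largest called difference at 12 h (0.56, SE 0.124, adjusted p = 0.00771), at 35.2 and 41.1 TPM against 26.1, 25.4 and 24.9 TPM. Nip7, another factor of pre-60S particles, stood at 58.3 and 59.6 TPM against 49.2, 40.6 and 46.2 TPM at 12 h, a call that scaling took away (adjusted p = 0.0553). At 24 h Nip7 overlapped its controls (46.5, 48.6 and 45.4 against 46.3, 42.2 and 46.4 TPM), and at 36 h it was above them again, at 62.8, 59.3 and 62.1 TPM against 43.2, 49.7 and 46.4 TPM. Gnl3 (nucleostemin), a nucleolar GTPase of dividing cells, held 18.9, 23.8 and 20.8 TPM under lithium at 36 h and 13.3, 13.1 and 10.9 TPM in controls. Bop1, Pes1 and Wdr12 form a complex needed to mature the large subunit RNA, and their 36 h differences were 0.70, 0.27 and 0.42, of which that of Pes1 was not called (adjusted p = 0.0572). Bop1 held 45.7, 49.9 and 47.5 TPM under lithium and 34.5, 32.9 and 21.3 TPM in controls. Ppan (0.78), Noc2l (0.70), Noc3l (0.60), Nop2 (0.60), Nop16 (0.37) and Rrp1 (0.32) were called as well at 36 h.

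At 72 h the library sets gave a view that does not treat each library as a replicate. In 13 of 38 members the mean of every lithium set lay above the mean of every control set in CCD, against 14.2% of all genes, and in cTAL this held for none, against 0.444%. Fbl ran from 26.9 to 37.2 TPM over the 4 control sets and from 50.5 to 75.2 TPM over the 4 lithium sets. For Nop56 the sets spanned 36.4 to 43.9 and 52.9 to 61.8 TPM, and for Nop58 28.7 to 36.6 and 43.0 to 54.0 TPM. Dkc1 spanned 41.5 to 49.2 and 62.6 to 86.4 TPM. The 9 members called over set means were Fbl, Nop56, Nop58, Rrp9, Dkc1, Wdr74, Ppan, Nip7 and Mrto4. In cTAL, control set 1 is 1 library, which had the lowest median correlation with its own group (0.91). Its values were the highest cTAL control set means of Fbl (42.8 TPM) and Nop56 (43.0 TPM). For Nop58 (20.8 TPM) and Dkc1 (34.7 TPM) they were the lowest. The same library was the highest cTAL control set for Rrp9 (29.3 TPM), Nip7 (47.6 TPM), Rrp1 (57.6 TPM) and Mrto4 (26.8 TPM). This was also so for Polr1e (23.1 TPM), Nob1 (42.1 TPM) and members not separated in CCD, such as Pes1 (76.8 TPM). Among members separated in CCD, it was not the highest for Nop58, Dkc1, Wdr12, Wdr74 and Ppan. Where it was the highest, a cTAL lithium set counted as above only if it exceeded that single library.

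**Figure D3:**
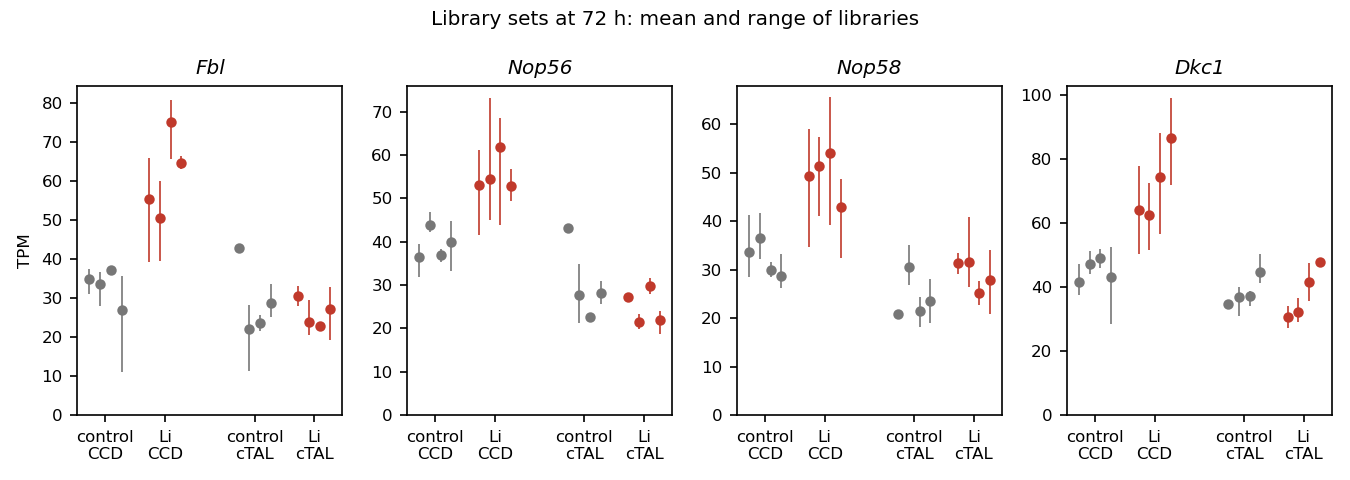
Mean TPM of Fbl, Nop56, Nop58 and Dkc1 in each of the 4 control (grey) and 4 lithium (red) library sets at 72 h, in CCD and cTAL, with bars for the range of the libraries in a set. In CCD every lithium set mean lies above every control set mean for these 4 genes, and in cTAL the set means overlap.

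In cTAL, 72 h of lithium gave no called member. In limma 0 of 38 passed in either direction, where 0.701% of all genes were called, and 1 had an unadjusted p under 0.05. With set means no gene at all was called in cTAL, and after scaling 0 members were, beside 0.179% of all genes higher and 0.461% lower. The median difference was -0.051, beside -0.075 over all genes, and 12 of 38 members were above 0, or 24 after scaling. Fbl ran from 11.2 over 25.5 to 42.8 TPM in controls and from 19.1 over 25.9 to 33.2 TPM under lithium, a difference of 0.01 (SE 0.155). Nop56 went from 21.3 over 26.7 to 43.0 TPM and from 18.7 over 23.7 to 31.6 TPM, a difference of -0.17 (SE 0.116).

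The difference between the lithium effects of the segments was tested itself. It was called for 10 of 38 members (26.3%), all with the larger effect in CCD, against 11.8% of all genes in that direction and 3.44% in the other. They were 5 of 6 snoRNP genes (Fbl, Nop56, Nop58, Rrp9 and Dkc1) and 5 of 13 large subunit genes (Nop2, Wdr74, Rrp1, Nip7 and Mrto4). Fbl had an excess in CCD of 0.87 (SE 0.193, adjusted p = 0.000529), Dkc1 of 0.68 (SE 0.135, adjusted p = 0.000115), Nop56 of 0.64 (SE 0.123, adjusted p = 5.62e-05), Mrto4 of 0.59 and Wdr74 of 0.54. After scaling 6 members were past the threshold, where 8.48% of all genes were, and over set means 0, with Fbl lowest at an adjusted p of 0.0596, where 3.34% of all genes were called. Each set was found in both segments, but neither the fit over libraries nor that over set means paired CCD with cTAL by set.

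**Figure D4:**
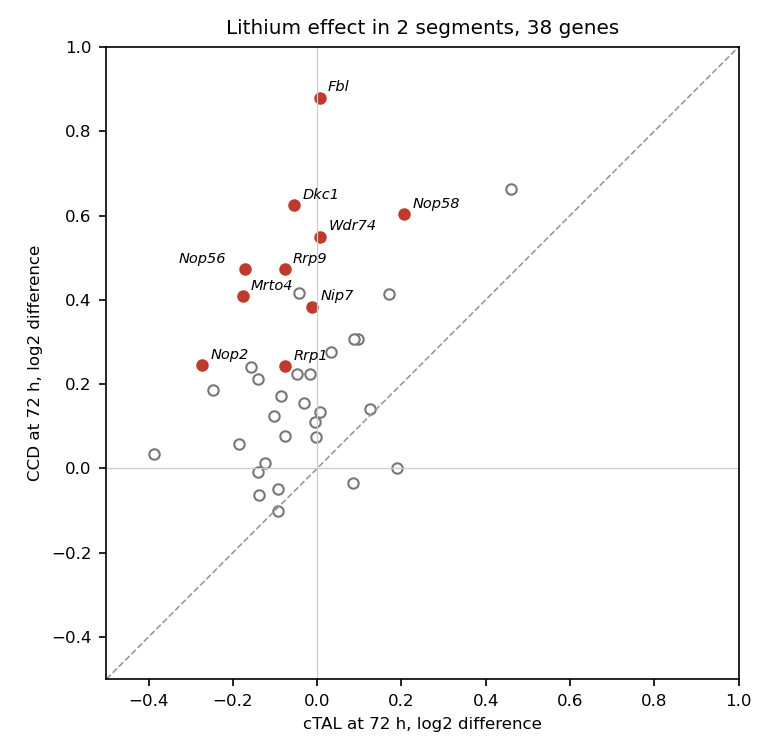
Log2 difference between lithium and control at 72 h in cTAL (x axis) and CCD (y axis) for the 38 members, on the log2(TPM + 1) scale, with the line of equal effects dashed. Filled red points with names are the 10 members whose difference between segments was called, and all 10 lie above the line.

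Control libraries of the segments also differed. Of 38 members 26 were called higher and 2 lower (Polr1c and Gar1) in control CCD than in control cTAL at 72 h, against 46.9 and 20.3% of all genes. The median over all genes was itself 0.249, and median-of-ratios scaling, which removes that shift, left 10 members higher and 4 lower (Imp4, Ncl, Polr1c and Gar1), beside 28.9 and 30.3% of all genes. Over set means 11 were higher and 0 lower, beside 32.3 and 14.5%. After scaling and over set means, the counts of higher members were thus near the background shares, and those of lower members were below them. A higher level in CCD was then not particular to the members. Here too CCD and cTAL were not paired by set. Wdr75, a small subunit processome protein, had the largest difference, at 26.2 ± 3.95 TPM (SD, n = 17) in CCD and 13.7 ± 2.51 TPM (SD, n = 12) in cTAL. Its log2 difference of 0.89 (SE 0.091) became 0.62 after scaling and stayed called, while lithium did not move it by a called amount at any time. Nip7 was at 50.1 ± 7.62 TPM (SD, n = 17) and 30.5 ± 8.47 TPM (SD, n = 12). Immune markers were far higher in cTAL controls (2157 to 6566 TPM summed, with 1 marker at 0) than in CCD controls (24.6 to 634 TPM, with 1 marker at 0), and 14 of 14 were called lower in CCD. Their part was not tested.

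Whether the effect changed between times was tested by fitting all 8 CCD groups together. Nop56 was the only member whose lithium effect differed over the 4 times by the F test (adjusted p = 0.000672), where 8.43% of all genes were called. Its effect was 0.80 lower on the log2 scale at 72 h than at 36 h (-0.80, adjusted p = 0.00109), and Npm1 differed by -0.47 (adjusted p = 0.0191), the 2 members called of 38 against 3.02% of all genes lower. After scaling Npm1 was not called (adjusted p = 0.39), and leaving out 36 h control library 1 or 3, or 36 h lithium library 1 or 2, left 1 member called. Over set means no member was called, where 0.0142% of all genes were lower. Between 24 and 36 h no member was called in this fit, where 1.4% of all genes were, with 10 at an unadjusted p under 0.05. The median effect was still 0.384 higher at 36 h, and 37 of 38 effects were larger, against 50.1% of all genes. A fit of the 6 early groups alone, added after the data were seen, called 7 members higher at 36 than at 24 h (Gar1, Gnl3, Rrp9, Bop1, Nop56, Nob1 and Imp4), against 4.22% of all genes. Between 12 and 24 h no member was called, where 0.837% of all genes were, with 2 at an unadjusted p under 0.05. The early fit called Nop56 higher (0.61) and Nob1 lower (-0.58), beside 5.43 and 2.49% of all genes. All 3 of these differences share libraries: the 24 h libraries enter both early steps and the 36 h libraries both later ones. If all rats started at the same clock time, 12 and 36 h fall at the opposite time of day to 24 and 72 h. No fit used clock time, so time on lithium and time of day cannot be told apart in these steps.

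In controls alone, Nop16 and Rrp1, large subunit factors, were called over the 4 times, against 13.8% of all genes. Nop16 was at 101, 94.3, 96.5 and 115 TPM and Rrp1 at 58.6, 61.5, 59.2 and 49.3 TPM on average at 12, 24, 36 and 72 h. Both calls were fragile: none remained without any 1 of the 24 h controls or the second 36 h control, or over set means.

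The rest of the pathway was read from lists. Beyond the members, 22 of 41 other small subunit genes and 21 of 43 other large subunit genes were called higher at 36 h, with medians of 0.406 and 0.331, and 18 of 40 and 12 of 43 at 72 h. After scaling these became 15 and 12 at 36 h and 17 and 16 at 72 h. Over set means 0 and 0 passed at 36 h and 5 and 5 at 72 h. The shares of all genes called higher at 36 and 72 h were 23.7 and 22%. After scaling they were 16.5 and 20.6%, and over set means 4.66 and 10.8%. The 12 of 43 other large subunit genes called at 72 h were near the background share. Utp18 (0.69), a small subunit processome protein, and Ccdc86 (0.81), a nucleolar protein, had the smallest adjusted p of these lists at 36 h. Other polymerase I genes were called in 7 of 14 at 36 h, among them Ubtf (0.60), the architectural factor of ribosomal DNA. That list also holds subunits shared with other RNA polymerases (Polr1d, Polr2e, Polr2f, Polr2h, Polr2k and Polr2l), so it is not of polymerase I alone. RNA polymerase III genes were called in 1 of 21, Polr3g (1.28), which is below the background share. RNA exosome genes, which trim the precursors, rose in 8 of 15 and fell in 2 at 36 h, with the smallest p for Exosc8 (1.22). Nucleotide and polyamine synthesis genes rose in 16 of 23, with the smallest p for Mthfd2 (1.32), or 13 of 23 after scaling.

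Ribosomal protein genes, whose products the members assemble, had more calls at 72 h than at 36 h. At 36 h 15 of 30 small subunit and 24 of 42 large subunit protein genes were called higher, but after scaling 4 and 3, so that result depended on the scale. The shares of all genes were 23.7% at 36 h, or 16.5% after scaling, and 22% at 72 h. At 72 h 29 of 29 and 39 of 41 were called higher with medians of 0.496 and 0.499, with 28 and 39 after scaling and 23 and 33 over set means. Rps2 had the smallest p of these genes at 36 h (1.24) and at 72 h (1.04). Many ribosomal protein genes have near-identical processed copies, so their single levels are uncertain. Counts of calls at the 2 times come from groups of unlike size, and summed levels rose at both. Mean sums of the small subunit list went from 6585 to 8895 TPM at 36 h and from 6825 to 9806 TPM at 72 h. Those of the large subunit list went from 11524 to 14627 and from 11841 to 16293 TPM. The members had a median of 0.554 at 36 h and 0.218 at 72 h, and the difference between these lists was not tested. Translation initiation factors rose in 16 of 34 at 36 h and 14 of 34 at 72 h, with 1 and 2 called lower. In cTAL none of these lists had a called gene.

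Set beside the cell cycle, most members were called later than DNA replication genes. Of 28 replication genes 23 were called higher at 12 h (median 0.996), where 5 of 38 members were, and 28 of 28 at 24, 36 and 72 h (medians 2.32, 2.34 and 1.12). Of 21 mitosis genes 0 were called at 12 h (median 0.019), and 21 of 21 at 24, 36 and 72 h (medians 1.58, 3.22 and 1.55). At 24 h, when both lists were called in full, 7 of 38 members were. Over set means replication genes were called in 0, 25, 26 and 26 and mitosis genes in 0, 4, 21 and 21 at the 4 times. In cTAL 7 of 18 mitosis genes and 3 of 23 replication genes were called lower. The early comparisons rest on the same libraries for every list, and the difference in timing between lists was not tested.

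**Figure D5:**
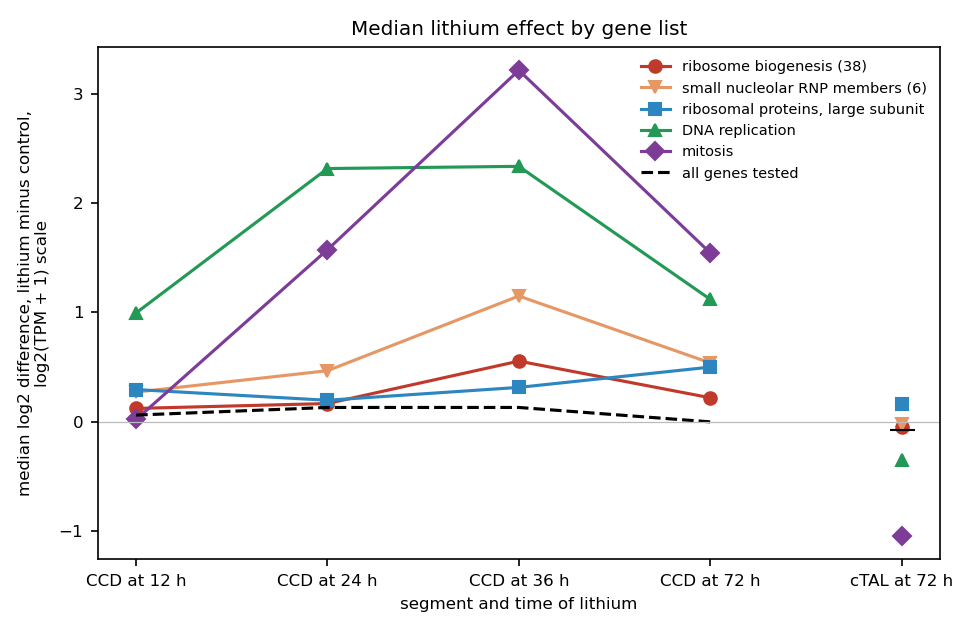
Median log2 difference between lithium and control, on the log2(TPM + 1) scale, at 12, 24, 36 and 72 h in CCD and at 72 h in cTAL, for the 38 members, their 6 snoRNP genes, large subunit ribosomal proteins, DNA replication and mitosis genes, and for all genes tested (black). Replication genes are at 0.996 at 12 h, and the members reach their highest median, 0.554, at 36 h.

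Myc, the transcription factor known to drive ribosome biogenesis genes, was low in CCD, at no more than 3.77 TPM in any library. At 12 h it stood at 0.30, 0.05 and 0.42 TPM in controls and 1.05 and 1.73 TPM under lithium, a log2(TPM + 1) difference of 0.92 (SE 0.262, adjusted p = 0.0331). At 24 h it was 0.94, 0.29 and 0.45 against 1.10, 1.96 and 1.27 TPM, which did not overlap but was not called (adjusted p = 0.0547). At 36 h, when most members were called, Myc did not differ by a called amount: 1.68, 1.44 and 2.54 TPM in controls and 1.63, 2.41 and 1.42 TPM under lithium (-0.03, SE 0.234). At 72 h it was called higher (0.64, SE 0.171, adjusted p = 0.00298), from 0 over 0.51 to 1.51 TPM to 0.20 over 1.25 to 3.77 TPM. With a pseudocount of 0.1 these differences were 2.20 at 12 h and 1.33 at 72 h. Over set means neither call held (adjusted p = 0.769 at 12 h and 0.0939 at 72 h), and with the replicate block the 12 h call was lost (adjusted p = 0.058). Of the 11 genes of the Myc network tested, Mycl rose at 36 h (1.95), from 0.19 ± 0.240 to 3.55 ± 0.420 TPM (SD, n = 3), and the Myc antagonists Mxd4 (-0.86) and Mxi1 (-0.44) fell.

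Markers of cell types moved in some of the same comparisons, and their part in the members' results was not tested. In a tissue sample fewer cells of a type and less RNA per cell cannot be told apart. At 36 h 9 of 11 principal cell markers were called lower, with sums of 18624 to 22322 TPM in control and 10075 to 10998 TPM in lithium libraries, and 4 of 8 thick ascending limb markers, with 1718 to 2206 against 764 to 842 TPM. At 72 h 9 of 11 principal and 11 of 11 intercalated cell markers were called lower, the latter at 9451 to 14374 against 7966 to 10383 TPM. No principal, intercalated or thick ascending limb marker was at 0 throughout a CCD group. Endothelial markers were called lower in 8 of 9 at 72 h, with 26.6 to 266 against 17.1 to 100 TPM and none at 0 throughout either group. Proximal tubule markers were called lower in 5 of 13 at 24 h, with 611 to 2085 TPM in controls and 154 to 295 TPM under lithium and none at 0. At 24 h 5 of 11 intercalated cell markers were also called lower, with 13216 to 14546 against 10048 to 10665 TPM, and of principal cell markers 4 of 11 were called lower and 1 higher. These lists summed to at most 2085 TPM for proximal and 281 TPM for endothelial genes in any CCD library. The mitochondrial share was also lower under lithium, at 8.06 to 8.54% against 8.77 to 11.66% at 36 h. In 1 lithium set, CCD libraries 16 to 19, AC095947.2, which is no member, was listed at 159 to 1250 TPM and at 0 in all other CCD libraries. In cTAL it was listed at 107 to 228 TPM in controls 9 to 12 and at 330 to 613 TPM in lithium libraries 8 to 10. It was at 0 in the other cTAL libraries, and no CCD control held it. Whether it marks a batch was not tested. Without the lithium CCD libraries that held it, 15 of 38 members were called higher at 72 h, where 20.2% of all genes were.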

How the data were processed

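RNA from microdissected segments was amplified with the SMARTer V4 kit over 15 PCR cycles and made into libraries with Nextera XT, per the labels' protocols. The authors deposited TPM values for 32754 genes in 75 libraries, 53 of CCD and 22 of cTAL. STAR 2.5.2b, RSEM 1.2.31 and the Rnor_6.0 build are named in the submitters' processing notes. TPM keeps no depth or strand, and RSEM divides reads between near-identical copies, so genes with such copies are uncertain. A 0 h group that the protocol names was not analysed here.

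Differences were fitted on log2(TPM + 1), which understates the change of low genes, with limma 3.58.1 in R 4.3.3, with a mean-variance trend. Genes needed at least 1 TPM in as many libraries as the smallest group of the fit. The 12, 24 and 36 h comparisons came from 1 fit of the 6 early groups, those at 72 h from each segment's own groups, and differences between segments or times from joint fits. P-values were adjusted by Benjamini-Hochberg over all genes tested and called under 0.05. The fits were tested on simulated data with independent noise for each library. That simulation held no library sets, so it does not cover the dependence between libraries.

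Alternatives were median-of-ratios scaling, means of library sets, pseudocount 0.1, no filter, no trend, a replicate block and leaving out libraries. Scaling moved the median of all genes from 0.129 to -0.007 at 24 h and from 0.129 to -0.004 at 36 h. The members and gene lists were chosen with earlier results of these data known. Named genes were a panel of 11 (Ncl, Npm1, Fbl, Nop56, Nop58, Dkc1, Polr1b, Rrn3, Nolc1, Mybbp1a and Myc), the 5 called members with the largest rise and fall in each lithium comparison, members called in opposite directions at different times, the 5 called members of smallest p in the F test, and the 3 genes of smallest p in each list. Other genes named in the text were picked after their values were seen. Promoter words were searched by exact match on both strands.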

Additional observations from a re-analysis of the deposited data

Results flagged for a closer look

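The lithium effect at 72 h differed between CCD and cTAL by the interaction test for 10 members. On the log2(TPM + 1) scale the effect in CCD exceeded that in cTAL by 0.874 for Fbl, 0.644 for Nop56, 0.396 for Nop58, 0.549 for Rrp9, 0.679 for Dkc1, 0.517 for Nop2, 0.542 for Wdr74, 0.317 for Rrp1, 0.395 for Nip7 and 0.586 for Mrto4. None of these was called over set means.

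The lithium effect in CCD differed between 36 and 72 h for Npm1 (-0.466) and Nop56 (-0.798), and that of Nop56 differed over the 4 times (F test in limma, adjusted p = 0.000672).

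Among the 10 lithium libraries of cTAL, the only group of a size that allows the check, library 7 stood apart for Rrn3 at 20.82 TPM and library 2 for Wdr74 at 36.0 TPM, each the highest of its group. With 38 members checked, chance flags about 1 in 20.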

How the results depend on the processing

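Depth is unknown from TPM, and which libraries are from different rats is not given. No called difference of a named gene changed sign under the alternatives run. At 12 h the 5 calls became 3 with median-of-ratios scaling, 0 with set means and 3 with the replicate block. At 24 h the 7 calls became 4 higher and 3 lower with scaling and 0 with set means. Set means left 3 at 36 h and 9 at 72 h. The 10 calls between lithium effects of the segments became 6 with scaling and 0 with set means, and the 26 higher and 2 lower members between control segments became 10 and 4 with scaling and 11 and 0 with set means. From 12 to 24 h, the fit of the 6 early groups called 1 higher and 1 lower. From 24 to 36 h, scaling called 1, leaving out the 3 CCD libraries of lowest correlation (controls 3 and 17, lithium 15) called 1, and the early fit 7. From 36 to 72 h, scaling left 1 lower and set means 0. Over the 4 times the single call became 2 with scaling, 0 with set means, 3 with the replicate block, 2 without those 3 libraries and 2 without lithium CCD libraries 16 to 19. In controls over time the 2 calls became 1 with pseudocount 0.1, 1 with no filter, 1 with no trend, 0 with set means and 4 with the replicate block. The cause was not tested.

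Leaving out 1 library at a time gave 0 to 5 calls at 12 h (2 without control 2, 0 without lithium 2), 4 to 8 at 24 h (4 without lithium 1), 25 to 33 at 36 h, 1 to 2 lower from 36 to 72 h, 1 to 2 over the 4 times (2 without lithium 12 h library 2), and 0 to 2 in controls over time (0 without any 24 h control or 36 h control 2). The labels tie no numbers together, and correlations of same-numbered libraries' deviations ran from -0.191 to 0.250 in CCD and from -0.136 to 0.374 in cTAL, with 1 of 2, 1 of 3, 0 of 3 and 5 of 17 over 0.1 in CCD at the 4 times and 3 of 10 in cTAL. With 2 or 3 numbers at each early time these correlations cannot show or exclude pairing, and CCD was not compared with cTAL. The main fits took the libraries to share only a number. With the replicate block the counts were 3, 8, 31 and 16 at 12, 24, 36 and 72 h, where 5.92, 17.8, 23.4 and 20.6% of all genes were called higher.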
